A study of Mus musculus with 6 samples.

Results

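The endothelial selectins P-selectin (Selp) and E-selectin (Sele) and 4 sialomucins, Glycam1, Cd34, Podxl and Emcn, were measured as RNA in 3 subsets of thymic endothelial cells (ECs). These 6 genes were taken by gene symbol from the 24457 genes on chromosomes, and all 6 were among the 11717 genes that reached an FPKM of 1 in at least 2 libraries and were tested. FPKM counts fragments per unit of transcript length and of library depth, so it can be set side by side between genes of different length. Glycam1 passed this filter only through the subset in which it was high.

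The study asked which ECs of the thymus are specialized for the entry of progenitor cells from the blood. Thymi of female wild-type C57BL/6 mice, 4 to 6 weeks old by their labels, were digested and ECs were gated as CD31+CD45-EpCAM- cells. Surface Ly6C and P-selectin divided these cells into Ly6C+Selp- (type I), Ly6C+Selp+ (type II) and Ly6C-Selp+ (type III) ECs. The stated purity of each sorted sample was at least 90%. Each subset gave 2 libraries, 6 in all. No mouse was treated or mutated. The labels do not say whether the 2 replicates of a subset came from separate mice, so p-values measure the spread between these libraries, which may be technical.

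Selectins are lectins that catch leukocytes and progenitors from flowing blood by binding sialylated and fucosylated sugars. P-selectin is kept ready in Weibel-Palade bodies, the storage granules of ECs, whereas E-selectin is made on demand after inflammatory signals. Sialomucins are proteins densely covered with sialylated O-glycans, and they can present sugars to leukocytes when decorated by the right enzymes, or keep cells apart through their charge. RNA levels give neither the surface protein nor its sugars.

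In these data the selectins and Glycam1 were low or listed at 0 in Ly6C+Selp- (type I) ECs and high in Ly6C-Selp+ (type III) ECs, Podxl went the opposite way, and Cd34 and Emcn were high in all 3 subsets. Between type III and type I ECs, 4 of the 6 genes passed the threshold (limma, adjusted p under 0.05), against 4.14% of all tested genes. Selp, Sele and Glycam1 were the 3 that were higher, and Podxl was the 1 that was lower. Surface P-selectin was a gate of the sort, so the direction for Selp between Selp- and Selp+ cells was set by the sort. Between type II and type I ECs the 2 selectins passed, against 0.393% of all genes, and between type III and type II ECs Glycam1 passed, against 0.222%. Glycam1 entered the tested genes through the very libraries in which it was high, so its calls in these counts are no support, and the other 5 genes gave 3, 2 and 0 calls in the 3 comparisons. The 3 comparisons share libraries and are not independent of each other. With 2 libraries against 2, an exact permutation test of a single gene cannot go below 0.33, so all tests rest on the spread that limma estimates across genes.

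**Figure D1:**
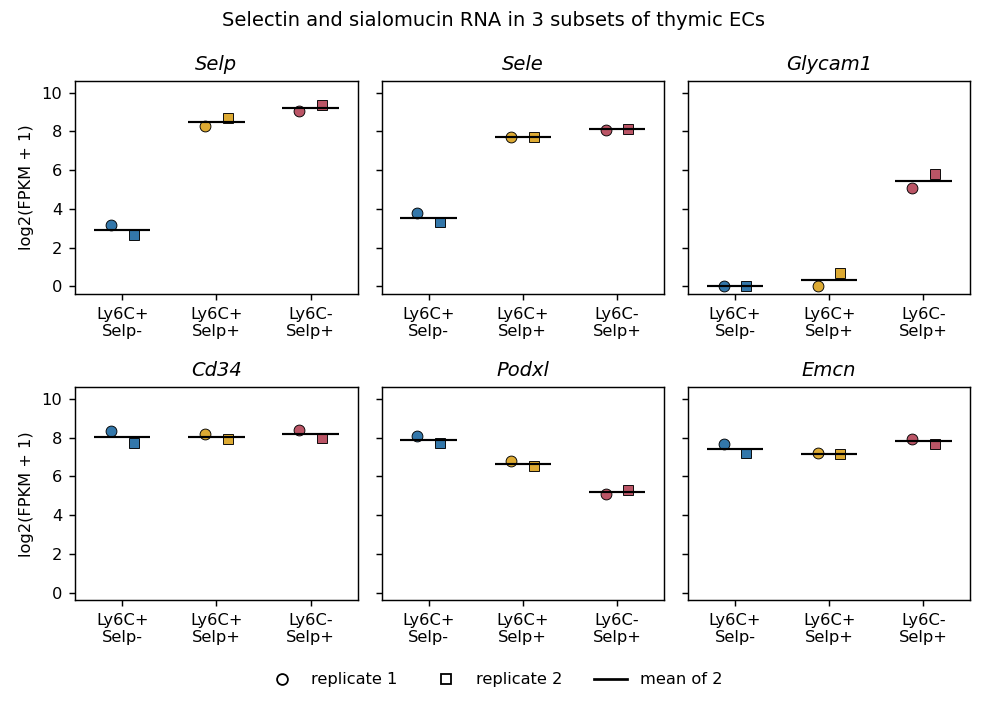
Level of each gene as log2(FPKM + 1) on the y axis in every library, by subset on the x axis. Circles are replicate 1, squares replicate 2, and the bars the mean of the 2. Selp and Sele step up between the Selp- and the Selp+ subsets, Glycam1 is high in Ly6C-Selp+ ECs, Podxl is lower from subset to subset, and Cd34 and Emcn lie between 139 and 332 FPKM in every library.

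The stretches of 250 bases before the start sites of Sele, Selp and Glycam1 are shown because these 3 genes had the largest differences between subsets and differ in the motifs they hold. RefSeq promoter sequences were matched for 5 of the 6 genes, not for Podxl, and each of the 5 was located at exactly 1 place in mm9. The stretches lie at chr1:165978115-165978364 (plus strand) for Sele, chr1:166045145-166045394 (plus strand) for Selp and chr15:103395513-103395762 (minus strand) for Glycam1. Each is written 5′ to 3′ along its gene, ends with the base before the start of the gene in the files, position -1, and has the motif matches in capitals.
Sele: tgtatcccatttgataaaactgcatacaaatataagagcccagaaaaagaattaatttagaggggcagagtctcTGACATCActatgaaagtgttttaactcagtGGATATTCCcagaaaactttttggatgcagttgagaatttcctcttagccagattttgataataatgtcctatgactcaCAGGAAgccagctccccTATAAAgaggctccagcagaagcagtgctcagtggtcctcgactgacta
Selp: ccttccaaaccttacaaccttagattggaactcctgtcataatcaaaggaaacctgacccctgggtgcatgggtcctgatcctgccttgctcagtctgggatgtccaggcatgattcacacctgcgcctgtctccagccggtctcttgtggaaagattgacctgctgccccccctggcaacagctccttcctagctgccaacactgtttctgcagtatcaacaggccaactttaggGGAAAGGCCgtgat
Glycam1: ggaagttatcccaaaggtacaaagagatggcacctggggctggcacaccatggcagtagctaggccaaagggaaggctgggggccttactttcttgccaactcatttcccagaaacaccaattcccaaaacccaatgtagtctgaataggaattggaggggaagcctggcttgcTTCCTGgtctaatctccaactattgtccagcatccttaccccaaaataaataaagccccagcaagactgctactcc
The motifs searched were TATAAA on the gene's strand, and GGNNNTTCC (kB-type), TGACNTCA (CRE/ATF), AGATAA (the GATA type) and CAGGAA (the ETS type) on both strands. No 2 matches in these stretches overlapped. The capitals in Sele are, from left to right, a CRE/ATF match at -176 to -169, a kB-type match at -145 to -137, an ETS-type match at -66 to -61 and TATAAA at -49 to -44. In Selp they are a kB-type match on the opposite strand at -14 to -6, and in Glycam1 an ETS-type match on the opposite strand at -76 to -71. Of the 27025 mouse promoters of this length, 15.6% held the kB-type letters, 7.59% the CRE/ATF, 25.4% the ETS-type, 10.3% the GATA and 8.12% the TATAAA letters. Cd34 and Emcn held 2 ETS-type matches each and no match to the other motifs. A match describes letters in a window, and binding was not measured in these samples.

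Sele encodes E-selectin, which slows rolling cells on inflamed endothelium, and its gene is a textbook target of NF-kB. It lies at chr1:165978365-165987808 on the plus strand (mm9) with 14 exons. Sele was at 12.7 and 8.85 FPKM in type I ECs, at 207 and 205 in type II ECs, and at 269 and 283 in type III ECs. The libraries of the 3 subsets did not overlap, and the Selp- subset stood far below the rest. The means were 10.8 ± 2.72, 206 ± 1.52 and 276 ± 9.58 FPKM (SD, n = 2), 19.1-fold higher in type II than in type I ECs and 25.6-fold higher in type III ECs. On the scale of log2(FPKM + 1), which understates changes of low genes, the difference from type I was 4.16 (SE 0.24, adjusted p = 7.2e-05, limma) in type II and 4.58 (SE 0.24, adjusted p = 3e-05, limma) in type III ECs. E-selectin was not a gate of the sort. Between the 2 Selp+ subsets the difference was 0.42 (95% interval -0.13 to 0.97, adjusted p = 0.64, limma), so it did not pass, and an increase of up to 0.97 lies within the interval.

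Selp encodes P-selectin, which binds PSGL-1 on leukocytes and progenitors. It lies at chr1:166045395-166080157 on the plus strand with 16 exons. Its level was 7.87 and 5.20 FPKM in type I ECs, 313 and 416 in type II ECs, and 526 and 657 in type III ECs. The order of the 3 subsets held in every library, with no overlap, and the protein gate matched the RNA in all 6. The low subset was not at zero, since an estimated 75 and 62 fragments lay behind its values. The means were 6.54 ± 1.89, 364 ± 72.5 and 591 ± 92.8 FPKM (SD, n = 2). Relative to type I ECs the log2 difference was 5.61 (SE 0.27, adjusted p = 3e-05, limma) in type II and 6.31 (SE 0.27, adjusted p = 7.8e-06, limma) in type III ECs. Within the Selp+ gate, type III ECs had 1.62-fold more Selp RNA than type II ECs, a log2 difference of 0.70 (95% interval 0.08 to 1.32, adjusted p = 0.45, limma) that did not pass. In bulk samples, fewer cells with a transcript and less RNA per cell cannot be told apart. Platelets also hold P-selectin, and the 7 platelet markers summed to between 1.72 and 5.66 FPKM per library with at most 1 gene at 1 FPKM or more. Pf4, the 1 platelet marker that was tested, was at 0 and 0 in type I, 1.12 and 3.52 in type II and 0 and 0.67 FPKM in type III ECs and did not pass. The part of platelets in the Selp level was not tested.

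The 2 selectin genes stood closer to type III than to type I ECs in the intermediate subset. A contrast of type II ECs with the mean of the other subsets asks whether the intermediate subset sits at the midpoint on the log2 scale. It lay above the midpoint by 2.45 for Selp (SE 0.24, adjusted p = 0.011, limma) and by 1.87 for Sele (SE 0.21, adjusted p = 0.023, limma). These were 2 of 6 genes, against 0.0427% of all tested genes (5 genes). Types II and III were both sorted as positive for surface P-selectin and type I as negative. The position of Selp therefore follows from the sort, whereas E-selectin was not gated. For Podxl the distance from the midpoint was 0.11 (95% interval -0.36 to 0.58, adjusted p = 1, limma). Both selectin calls depended on single libraries. For Selp the adjusted p was 0.17 without type II replicate 2 and 0.0611 without type III replicate 1 (limma). For Sele it was 0.362 and 0.235 without replicate 1 or 2 of type II ECs and 0.15 and 0.184 without replicate 1 or 2 of type III ECs (limma), while the distance stayed between 1.75 and 1.99 with any library left out.

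**Figure D2:**
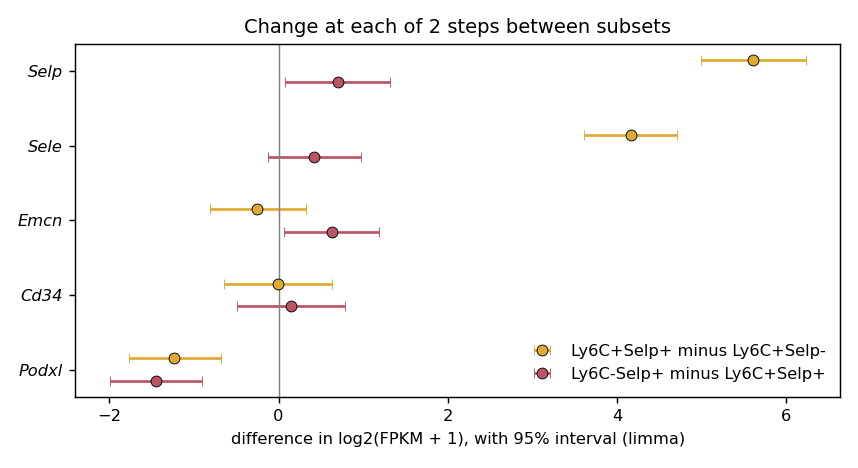
Difference in log2(FPKM + 1) with its 95% interval from limma (x axis) for 5 genes (y axis). Yellow is the step from type I (Ly6C+Selp-) to type II (Ly6C+Selp+) ECs and red the step from there to type III (Ly6C-Selp+) ECs. Glycam1 is left out because it was listed at 0 in 3 libraries. Selp and Sele differ by 5.61 and 4.16 at the step into the Selp+ gate and by 0.70 and 0.42 at the other, and Podxl by -1.23 and -1.45.

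The balance of the selectins also differed between subsets. Sele RNA exceeded Selp RNA in type I ECs, with Sele-to-Selp ratios of 1.61 and 1.70. In the Selp+ subsets Selp exceeded Sele in all 4 libraries, with ratios of 0.662 and 0.494 in type II and 0.512 and 0.431 in type III ECs. This ratio uses the gene whose protein was gated, so it is a description.

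Glycam1 encodes a secreted mucin of high endothelial venules in lymph nodes, where its sulphated glycans catch lymphocytes. It lies at chr15:103393191-103395512 on the minus strand with 4 exons. Glycam1 was listed at 0 in both type I libraries and in type II replicate 1, and at 0.635 in type II replicate 2, with a deposited 95% interval of 0 to 2.63. In type III ECs it was at 33.1 (interval 20.7 to 45.5) and 55.0 FPKM (interval 43.0 to 66.9), from an estimated 28 and 85 fragments. The type III libraries thus stood apart from the other 4, with a mean of 44.0 ± 15.5 FPKM (SD, n = 2). Since 3 fragments of this short transcript correspond to an estimated 2.58 to 3.66 FPKM in the 4 other libraries, lower levels were not detectable at this depth, and no fold is given. Because the filter let Glycam1 in through its level in type III ECs, a test without that filter is the fairer measure. It gave an adjusted p of 0.0055 against type I and 0.108 against type II ECs (limma), beside 0.00015 and 0.0026 with the filter. Both type I libraries were at 0, so their SD was 0 at the detection floor. This lowers the spread that enters the test with or without the filter.

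Cd34 encodes a sialomucin of small-vessel endothelium and blood stem cells. Its gene at chr1:196765015-196787486 (plus strand, 8 exons) gave 328 and 211 FPKM in type I ECs, 287 and 239 in type II ECs, and 332 and 253 in type III ECs. The subsets overlapped at each step, and replicate 1 was above replicate 2 in each subset, as it was for the summed FPKM of all genes. The means were 269 ± 82.5, 263 ± 33.7 and 293 ± 55.9 FPKM (SD, n = 2). The log2 difference between type III and type I ECs was 0.14 (95% interval -0.50 to 0.78, adjusted p = 0.91, limma), which leaves room for a change of that size in either direction, and its sign turned under quantile normalization (-0.19).

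Podxl encodes podocalyxin, a strongly charged relative of CD34 that lines the luminal face of ECs and kidney podocytes. The gene lies at chr6:31469493-31513937 on the minus strand with 8 exons. Podxl was at 266 and 208 FPKM in type I ECs, at 108 and 91.9 in type II ECs, and at 33.6 and 38.5 in type III ECs. Each subset lay wholly below the one before it, at both steps. The means were 237 ± 41.5, 100 ± 11.5 and 36.1 ± 3.47 FPKM (SD, n = 2). Type I ECs were 6.57-fold above type III ECs, and the log2 difference of type III ECs was -2.67 (SE 0.24, adjusted p = 0.00056, limma). The steps were close in size, -1.23 (95% interval -1.77 to -0.68, adjusted p = 0.095, limma) into the Selp+ gate and -1.45 (95% interval -1.99 to -0.90, adjusted p = 0.065, limma) on to type III ECs. Neither passed on its own, but both did under 4 of the alternative settings, among them median-of-ratios scaling between libraries, with adjusted p of 0.0414 and 0.0181 (limma). That scaling moved the median difference of all tested genes between type III and type II ECs from 0.14 to 0.01. Of the 9 pericyte and fibroblast markers, 8 or 9 reached 1 FPKM in a library. The 9 summed to 600.0 and 261 FPKM in type I, 661 and 382 in type II and 183 and 212 in type III ECs. Between type III and type I ECs 1 of the 9 passed, lower in type III, against 4.14% of all tested genes called in either direction (limma). Between type III and type II ECs 0 passed and 7 had an unadjusted p under 0.05, against 1170 of all 11717 tested genes (limma). Their part in the Podxl difference was not tested.

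Emcn encodes endomucin, a sialomucin of veins and capillaries that limits leukocyte contact with resting endothelium. Its gene is at chr3:137004042-137094033 on the plus strand. Emcn gave 202 and 144 FPKM in type I ECs, 148 and 139 in type II ECs, and 243 and 203 in type III ECs. The type III libraries were the highest of all, but the lower of them exceeded the higher type I library by very little. The means were 173 ± 41.0, 144 ± 6.57 and 223 ± 27.7 FPKM (SD, n = 2). The log2 difference of type III ECs was 0.38 from type I (95% interval -0.18 to 0.94, adjusted p = 0.61, limma) and 0.63 from type II ECs (95% interval 0.06 to 1.19, adjusted p = 0.45, limma), beside medians of 0.08 and 0.14 over all tested genes, and neither passed.

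Complete separation of libraries was common in this small design. type III did not overlap type I ECs for 5 of the 6 genes, against 37.9% of all tested genes. type II did not overlap type I ECs for 3 of 6, against 33.6%. type III did not overlap type II ECs for 5 of 6, against 41.0%. Both counts with type III ECs include Glycam1, which entered the tested genes through those libraries and is no support there. Selp is in each count, and its separation from type I ECs was set by the sort. Selp, Sele, Podxl and Emcn separated between the 2 Selp+ subsets without passing the test.

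Summed over Cd34, Podxl, Emcn and Glycam1, sialomucin RNA was 796 and 562 FPKM in type I ECs, 543 and 471 in type II ECs, and 641 and 550.0 in type III ECs. The sums overlapped between type I and type III ECs. Podxl made up 33.5% and 36.9% of the sum in type I ECs, 19.9% and 19.5% in type II ECs, and 5.2% and 7.0% in type III ECs. Emcn made up 25.4% and 25.6%, 27.3% and 29.5%, and 37.8% and 37.0% in the same order. Glycam1 reached 5.2% and 10% in type III ECs. Podxl exceeded Emcn in both type I libraries, with Podxl-to-Emcn ratios of 1.32 and 1.44, and lay below it in the other 4, at 0.730 and 0.662 in type II and 0.139 and 0.189 in type III ECs. A ratio within a library does not change with its scaling, but shares are tied to each other, and no test was run on them. Against the same sum, selectin RNA stood at 0.0258 and 0.025 in type I, 0.958 and 1.32 in type II and 1.24 and 1.71 in type III ECs. The Selp+ subsets overlapped. Selp, whose protein was gated, is part of this ratio, so it is a description.

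**Figure D3:**
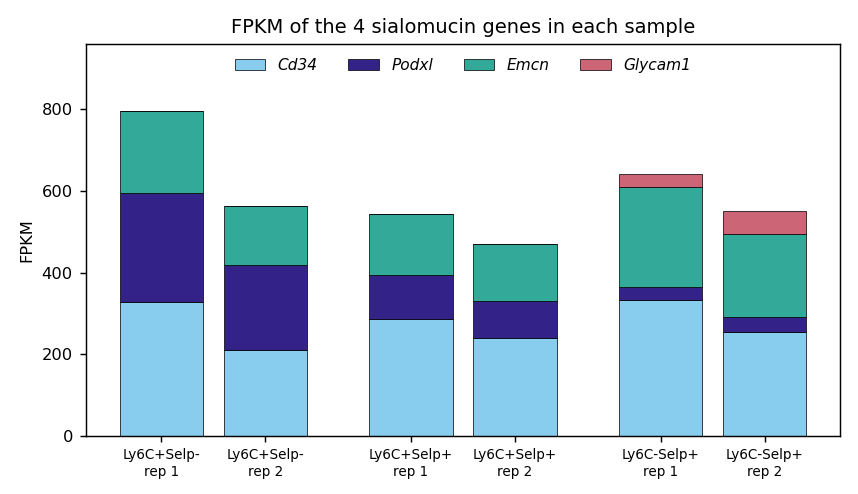
Stacked FPKM (y axis) of Cd34, Podxl, Emcn and Glycam1 in each of the 6 libraries (x axis). The dark Podxl segment shrinks from 33.5% and 36.9% of the stack in Ly6C+Selp- ECs to 5.2% and 7.0% in Ly6C-Selp+ ECs, while Glycam1 appears only in the latter at a visible height.

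Podocalyxin is tied to the actin cortex by ezrin, radixin and moesin (Ezr, Rdx, Msn) through the adaptors NHERF1 and NHERF2 (Slc9a3r1, Slc9a3r2). All 5 linker genes were tested and 1 passed, lower in type III than in type I ECs, against 4.14% of all tested genes called in either direction. Slc9a3r2 was at 202 and 175 FPKM in type I ECs, 89.3 and 80.1 in type II ECs, and 40.5 and 35.4 in type III ECs. Like Podxl it was lower without overlap at both steps. The log2 difference between type III and type I ECs was -2.28 (SE 0.23, adjusted p = 0.00078, limma), with -1.14 at each step (adjusted p = 0.099 and 0.10, limma). Msn, the most abundant of the 5 on the FPKM scale in type III ECs, was at 185 ± 38.6, 181 ± 19.8 and 223 ± 18.4 FPKM in the 3 subsets (SD, n = 2) and did not pass, nor did Ezr, Rdx and Slc9a3r1. The median difference of the list between type III and type I ECs was 0.21, beside 0.08 over all tested genes. No linker passed in the comparisons of neighbouring subsets (limma), with Slc9a3r2 the 1 gene under an unadjusted p of 0.05 in each. Of all 11717 tested genes, 877 were under it for type II against type I and 1170 for type III against type II ECs.

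Weibel-Palade bodies hold P-selectin together with von Willebrand factor, and 12 genes of their cargo and release machinery were tested. Between type III and type I ECs, 3 of 12 passed and were higher, against 4.14% of all tested genes called in either direction, 0 were lower, and the median of the list was 0.87, beside 0.08 over all tested genes. Vwf, the cargo that gives the granule its shape, was at 14.9 and 18.5 FPKM in type I, 163 and 259 in type II and 669 and 1095 in type III ECs. It differed by 5.60 (SE 0.32, adjusted p = 3.8e-05, limma) over the whole range and by 3.55 (SE 0.32, adjusted p = 0.0019, limma) at the step into the Selp+ gate, where it was the 1 gene of the list to pass, against 0.393% of all tested genes. The step from type II to type III ECs was 2.05 for Vwf, with an adjusted p of 0.050 (limma) that did not pass, beside 0.70 for Selp, and the difference between the 2 genes was not tested. Myrip, which links the granules to myosin, was at 2.16 and 1.79, at 7.73 and 8.95, and at 11.5 and 13.4 FPKM in the same order (difference over the whole range 2.17, SE 0.29, adjusted p = 0.0038, limma). Angpt2, a stored ligand of the receptor Tek, was at 13.0 and 9.49, at 20.9 and 18.8, and at 35.9 and 32.6 FPKM (1.54, SE 0.26, adjusted p = 0.012, limma). The call for Angpt2 was lost without type I replicate 2 (adjusted p = 0.0647), type III replicate 1 (0.106) or type III replicate 2 (0.0716). Cd63, a membrane protein of the granule, had means of 56.1 ± 28.0, 74.0 ± 17.5 and 138 ± 11.4 FPKM (SD, n = 2; adjusted p = 0.068, limma). Rab27a, Rab3d, Stxbp5, Vamp3, Stx4a, Sytl4 and Unc13d, which act in docking and fusion, did not pass. Unc13d reached 1 FPKM only in type III ECs (2.6 and 1.24 FPKM), through which it entered the tested genes. Its part in the list median and in unadjusted counts is therefore no support. Between the 2 Selp+ subsets 0 of 12 passed, against 0.222% of all tested genes (limma). An unadjusted p under 0.05 was seen for 4 of the 12, Unc13d among them, against 1170 of all 11717 tested genes (limma).

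**Figure D4:**
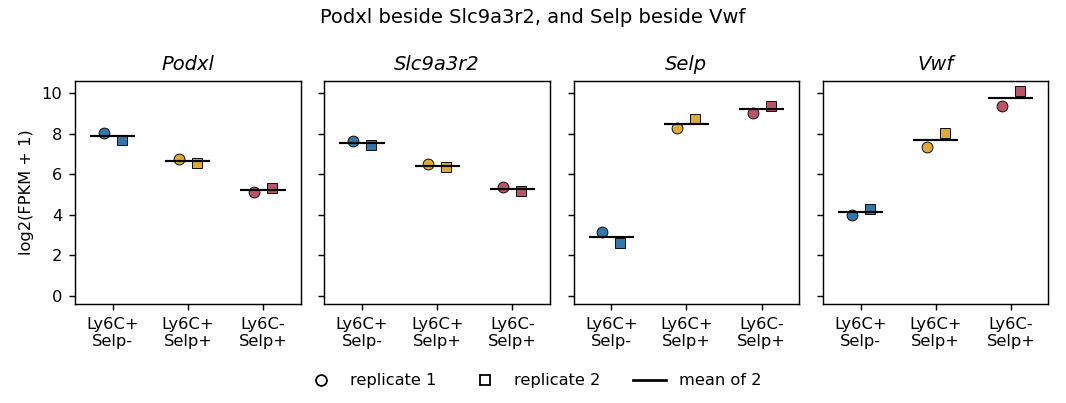
Level as log2(FPKM + 1) (y axis) of Podxl beside its linker Slc9a3r2, and of Selp beside the granule cargo Vwf, in every library by subset (x axis). Circles are replicate 1, squares replicate 2, and bars the mean of 2. Podxl and Slc9a3r2 are lowest in Ly6C-Selp+ ECs, at 33.6 to 38.5 and 35.4 to 40.5 FPKM, and Vwf is highest there, at 669 and 1095 FPKM.

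Of 10 further genes of the selectin system, among them Selplg, Podxl2, Cd300lg, Madcam1, Glg1, Cd44, Cd24a, Spn and Cd164, 8 were tested and 0 passed in any comparison (limma). At an unadjusted p under 0.05 there were 2 between type III and type I ECs, Cd300lg and Glg1, against 1648 of all 11717 tested genes. In the other comparisons there were 0, against 658 to 1170 of all tested genes. The medians of the list were 0.41 for type III against type I and 0.61 for type III against type II ECs, beside 0.08 and 0.14 over all tested genes. Cd300lg (nepmucin), an EC sialomucin that can bind lymphocytes, was at 329 and 256 FPKM in type I, 219 and 216 in type II and 176 and 170.0 in type III ECs. Its libraries were ordered like those of Podxl without overlap, with a smaller difference of -0.74 (95% interval -1.26 to -0.22, adjusted p = 0.14, limma). Glg1, a binding partner of E-selectin, was at 34.5 ± 4.73, 35.6 ± 4.18 and 51.3 ± 1.86 FPKM (SD, n = 2; adjusted p = 0.33 for type III against type I, limma). Podxl2 and Madcam1, the addressin of gut venules, stayed at or below 1.01 and 1.1 FPKM and were not tested.

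The leukocyte partner of P-selectin was low. Selplg, which encodes PSGL-1, was at 10.3 and 3.4, at 7.01 and 3.36, and at 20.4 and 6.67 FPKM in type I, type II and type III ECs. Replicate 1 exceeded replicate 2 in each subset. The 13 haematopoietic markers, 9 to 12 of which reached 1 FPKM in a library, did likewise in sum. Their sums were 295 and 51.8 FPKM in type I, 136 and 69.3 in type II and 512 and 135 in type III ECs. Lyz2 alone was at 177 and 296 FPKM in replicate 1 of type I and type III ECs. In type II ECs Rag1 (3.7 and 6.15 FPKM) and Itgam (0.0937 and 0.3 FPKM) went the other way. The part of these markers in the level of Selplg was not tested.

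Sele and Selp lie near each other on chromosome 1, on the same strand. Downstream of Selp, the lincRNA gene Gm16548 on the minus strand overlaps the 3′ end of Selp by 1451 bases and was at 1.23 and 1.23, at 48.6 and 62.5, and at 97.6 and 92.1 FPKM in the 3 subsets. It differed by 5.43 between type III and type I ECs (adjusted p = 1.2e-05, limma). The library kit is not stated to mark strand, so its reads and those of Selp cannot be told apart in the overlap. F5, which follows, stayed at or below 1.11 FPKM. Of 3 genes before Sele, Scyl3 was tested and did not pass, and BC055324 and Mettl18 were too low. Of 4 genes beyond F5, Ccdc181, Blzf1 and Nme7 were tested and did not pass, and Slc19a2 was too low.

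For each of the 6 genes, the 3 genes of most similar profile were sought by the root mean square distance between centred log2(FPKM + 1) values over the 6 libraries, among 4868 genes with a mean of at least 10 FPKM in some subset. For Selp these were Ackr1, a chemokine receptor of venules (distance 0.27), Gm16548 (0.47) and Fgf23 (0.69). Ackr1 was at 2.0 and 2.67, at 159 and 190.0, and at 306 and 297 FPKM. For Sele they were Gm16548 (0.39), Lbp (0.48) and Rcan1 (0.50), and Rcan1, an inhibitor of calcineurin, was at 28.2 and 26.0, at 246 and 232, and at 320.0 and 358 FPKM. Sele lay at 0.77 from Selp itself, farther than those genes. This distance grows with a difference in the size of the changes, which were larger for Selp. The 2 selectins correlated over the 6 libraries with r = 1.0 after rounding. For Glycam1 the nearest were D030025P21Rik (0.94), Ltbp2 (1.05) and Serpina1e (1.11), so no profile was close. For Podxl they were Mcc (0.11), Coro2b (0.15) and Efr3b (0.17), and Mcc was at 24.2 and 18.7, at 8.1 and 7.22, and at 2.74 and 2.75 FPKM. Cd34 had Ifngr2, Atp5b and Srsf7 and Emcn had Rcc2, Pfn1 and Hdac1 within 0.04, and these profiles were nearly flat.

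The libraries had summed FPKM of 221458 to 300932 and an estimated 1452476 to 2423171 fragments. The values are not scaled between libraries. All 8 endothelial markers were above 1 FPKM in every library, with sums of 1924 to 2772 FPKM. Between type III and type I ECs 2 of the 8, Cldn5 and Kdr, passed (limma), against 4.14% of all tested genes. Both had lower means in type III (29.4 against 387 and 66.8 against 189 FPKM). Between type III and type II ECs 1 of the 8 passed, lower in type III, against 0.222% of all tested genes (limma). The 5 lymphatic markers summed to between 9.85 and 31.4 FPKM, and 0 of the 4 tested passed in any comparison (limma). Between type III and type I ECs 3 of the 4 had an unadjusted p under 0.05, against 1648 of all 11717 tested genes. Of those 4, Prox1 was at 3.05 and 3.22 FPKM in type III ECs and at most 1.09 elsewhere, Lyve1 at 12.4 and 1.07 in type III ECs and at most 0.112 elsewhere, Flt4 had means of 18.4 in type I and 8.3 in type III ECs, and Pdpn of 2.45 and 3.54. Lyve1 reached 1 FPKM only in type III ECs, through which it entered the tested genes, so it is no support in the unadjusted count. The 5 thymic epithelial markers summed to between 11.0 and 45.4 FPKM and none passed. The part of these cells in the differences above was not tested.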

How the data were processed

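RNA of 6 libraries of sorted mouse thymic ECs, 2 per subset, was sequenced as paired-end reads. Trimmed reads were mapped by the authors to mm9 with TopHat2 2.0.10, and Cufflinks 2.1.1 gave FPKM per gene for each library. CASAVA 1.8 is also named. These versions come from the submitters' processing notes, which also name Cuffdiff, and the gene annotation is not given in the sources used here. The deposited FPKM values carry the bounds of a 95% interval, were not pooled over replicates and are not scaled between libraries. The fragments behind a value were estimated from those bounds as if they held counting error alone, and 3 fragments gave a median of 0.294 to 0.511 FPKM over genes. Intervals and floors cover counting error only. In each library 95 entries not on chromosomes were left out. No 2 libraries were alike enough to count as 1.

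Subsets and replicate numbers were taken from the sample titles and surface marker labels. Genes with at least 1 FPKM in at least 2 libraries were tested on log2(FPKM + 1) with limma 3.58.1 in R 4.3.3 (lmFit, eBayes with trend, all 6 libraries in 1 fit), with Benjamini-Hochberg adjustment over all tested genes and a threshold of 0.05. The fit was tested on simulated data of 11717 genes for the comparison of type III with type I ECs. It recovered 58 of 89 genes changed by 2 and 99 of 111 changed by 3 on the log2 scale, with 8 false calls. The simulated noise was normal and independent between libraries, with the SD of each gene capped, and genes of low mean were not changed. These counts hold for that setting and may be better than for the real libraries. The alternatives were other pseudocounts, filters and scalings, the replicate block, no trend, only the libraries compared, and each library left out.

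Named are the 6 genes, the genes of the lists (selectin system, podocalyxin linkers, Weibel-Palade bodies, selectin locus, and markers of endothelial, lymphatic, platelet, haematopoietic, thymic epithelial, and pericyte and fibroblast cells) and the 3 nearest profiles per gene. The genes and lists were chosen with earlier results of these data known, and the neighbours on either side of the selectin locus and the examples among endothelial and lymphatic markers after their values were seen. Exon counts and strands are from GENCODE mouse release 1 on the same assembly, and promoters from RefSeq. Some genes of these lists enter the counts and are not reported here by name.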

Additional observations from a re-analysis of the deposited data

How the results depend on the processing

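Selp, Sele, Glycam1 and Podxl passed in type III against type I ECs in all 16 alternatives (limma). Selp and Sele also did so in type II against type I ECs. The direction for Selp was set by the sort, so its passes are not counted as support. Glycam1 entered the tested genes through its level in type III ECs, and the filter was not renewed when a library was left out. Its passes are therefore no support, except with no filter, where the detection floor in type I ECs still lowers its spread. For the 6 genes, 323 of the recomputed values kept their direction and side of the threshold, 19 changed sign, 11 lost a call and 9 gained one.

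The 2 steps of Podxl passed under 4 alternatives. The step into the Selp+ gate was -1.17 with median-of-ratios scaling, -1.15 with upper-quartile scaling, -1.27 with quantile normalization and -1.23 with the replicate block, and the step to type III ECs was -1.59, -1.60, -1.61 and -1.45. With no filter on low values, Glycam1 did not pass between the Selp+ subsets (adjusted p = 0.108, limma), nor did Sele (1.87) and Selp (2.45) against the midpoint, and neither selectin did so without the trend. With the replicate block, Glycam1 passed against the midpoint (adjusted p = 0.0356, limma). With 1 library left out, the distance from the midpoint ran from 1.75 to 1.99 for Sele and from 2.25 to 2.66 for Selp, with the lost calls given beside those results.

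The sign of Cd34, which never passed, turned with the setting. Its difference between type III and type I ECs was -0.19 with quantile normalization and -0.18 to 0.46 with 1 library left out. Between the Selp+ subsets it was -0.0017, -0.012 and -0.20 with median-of-ratios, upper-quartile and quantile scaling and -0.048 to 0.34 with 1 library left out. For type II against type I ECs the same gave 0.051, 0.076 and 0.013, and -0.32 to 0.31. Against the midpoint it gave 0.026, 0.044 and 0.11, and -0.23 to 0.082. Podxl against the midpoint ran from -0.0082 to 0.22 with 1 library left out.

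The number of all tested genes past the threshold moved more. type III against type I ECs gave 485 genes, 317 with no filter, 971 with the replicate block, and 209 to 404 with 1 library left out (lowest without type III replicate 1 at 209 and replicate 2 at 219, and type I replicate 2 at 249). type II against type I ECs gave 46, and 12 with no filter, 98 with median-of-ratios and 98 with upper-quartile scaling, 103 with quantile normalization, 183 with the replicate block, 15 without the trend, 29 with only the libraries compared, and 12 to 33 with 1 left out (17 without type I replicate 2, 24 and 12 without type II replicate 1 and 2, 29 and 28 without type III replicate 1 and 2). type III against type II ECs gave 26, with 85, 100 and 90 under those scalings, 229 with the replicate block, 10 without the trend, 7 with only the libraries compared, and 2 to 14 with 1 left out (8 without either type I library, 4 and 14 without type II replicate 1 and 2, 6 and 2 without type III replicate 1 and 2). With no filter it gave 0 (limma), with 1354 genes at an unadjusted p under 0.05. The split of higher against lower calls was 11 to 15 with the deposited values and 23 to 62 with median-of-ratios scaling. The midpoint contrast gave 5, and 2 with no filter, 15 with the replicate block, 1 without the trend, and 1 to 4 with 1 left out (1 without type II replicate 2, 2 and 3 without type III replicate 1 and 2). The cause of these shifts was not tested.

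Libraries of the same replicate number deviated together from their subset means (r across genes 0.18 to 0.306), but with 2 numbers and no label that ties them to a mouse or day they share only a number. The replicate block changed no call of the 6 genes other than those given.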

Other observations

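Among the 24457 genes of a library, ranked by FPKM from the highest, Selp stood near the middle of the expressed genes in type I ECs. Sele stood higher there, and both were near the top in the other subsets. In type I ECs 11227 and 10461 genes reached 1 FPKM. Selp ranked 5469 and 5727 in type I ECs, 115 and 60 in type II ECs, and 73 and 40 in type III ECs. Sele ranked 3886 and 4032, then 183 and 163, then 168 and 150. Podxl ranked 158 and 144, then 368 and 378, then 1484 and 1112. Cd34 ranked between 124 and 168 and Emcn between 178 and 261 in every library, among the most abundant transcripts of all 3 subsets. Glycam1 ranked 1506 and 761 in type III ECs. Ranks do not depend on the scaling of a library and were not tested.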
